A study of Pleurotus ostreatus with 53 samples.

Results

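Of 1051 transposable element (TE) copies listed in the genome of the oyster mushroom Pleurotus ostreatus, 792 carry a Gypsy family name, and 196 of these form the set described here. A copy belongs to the set when its family is not Gypsy_1, Gypsy_2 or Gypsy_20, when its end minus its start is at least 1000 bp, and when it has a CG methylation value in all 3 libraries of the monokaryon PC9. The rule used names, coordinates and the presence of PC9 values, but no level of methylation, small RNA or mRNA. The study measured mRNA, small RNA and bisulfite-treated DNA in 6 groups with 3 biological replicates each, in 53 libraries, of which 2 instead of 3 are bisulfite libraries of primordium. PC15 and PC9 are monokaryotic strains, sampled as mycelium, with 1 kind of nucleus in each cell. HyB is mycelium of a dikaryon obtained by crossing the 2 monokaryons. N001 is a dikaryotic strain, and its mycelium, primordium (an early fruiting body) and fruitbody were taken. PC9 and PC15 are known as monokaryons recovered from N001, so both dikaryons hold nuclei of these types. The labels give no treatment, culture age or medium. Each strain stands for itself, and a strain difference rests on libraries of that 1 strain.

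Gypsy elements are retrotransposons bounded by long terminal repeats (LTRs), which copy themselves through an RNA that is reverse transcribed and inserted elsewhere in the genome. An intact copy holds both LTRs and the genes for the capsid, protease, reverse transcriptase, RNase H and integrase, while shorter copies are often fragments or single LTRs. In many fungi and other eukaryotes, methylation of cytosines in CG context marks silenced TE copies, and small RNAs matching them can guide their silencing. Methylation, small RNA and mRNA of a copy are therefore often read together.

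The 196 copies fell into 42 families. The 13 families with at least 5 copies held 141 of them, 29 smaller families held 55, and 14 families had 1 copy. Lengths ran from 1008 to 20831 bp, with a median of 5458 bp: 56 copies spanned 1000 to under 2000 bp, 30 spanned 2000 to under 5000 bp and 110 spanned at least 5000 bp. Scaffold 7 held 41 copies and scaffold 3 held 27. Coordinates are those of the deposited tables, and their genome build is not given in the sources used here. Nesting was common, since 93 copies overlapped another listed TE copy and 50 overlapped another copy of the set. Reads in the shared stretch count towards both. A listed gene overlapped 12 copies, 80 lay within 1000 bp of one, these included, and 27 lay over 5000 bp away, with a median gap of 1523 bp. Among all 1051 TE copies, 472 lay within 1000 bp of a gene.

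The mRNA libraries held 19628883 to 30123575 reads and the small RNA libraries 191411 to 5746479 reads on genes and TE copies together. RNA levels are given as RPM, reads per 1000000 reads of the library. For small RNA the library is the sum of reads on genes and TE copies. Reads elsewhere are left out of it, and reads in overlapping copies count more than once. Reads on other TE copies therefore lower the small RNA RPM of this set. Long copies of Gypsy_1, Gypsy_2 and Gypsy_20 with PC9 values, outside the set, held 500293 RPM in PC15 and 15434 RPM in PC9. In every group and both RNA assays replicate 1 differed more from replicates 2 and 3 than these did from each other over TE reads; over gene mRNA this did not hold in fruitbody. Over small RNA counts on TE copies, chi-square per degree of freedom was 56.3 between HyB replicates 2 and 3, but 765 and 716 between replicate 1 and each of them. In PC9 the same values were 14.9, 501 and 362. Methylation is the deposited CG level of a copy in percent. Its read coverage is unknown, and in PC9 3 values were exactly 0 and 5 exactly 100, whereas the other groups had none. The standard deviation over the libraries of a group had a median of 1.05 to 1.73 percentage points per copy, but exceeded 10 points for 10 copies in PC9 and reached 42.5 points there.

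Long Gypsy copies were methylated to about the same mean level in PC9 and the N001 dikaryon, and far less in PC15 and HyB. Mean CG methylation over the copies was 26.3%, 27.3% and 27.6% in the PC15 libraries, and 58.1%, 58.6% and 59.0% in the PC9 libraries. The HyB libraries had 34.4%, 32.6% and 31.8%. N001 mycelium had 60.3%, 58.4% and 60.2%, primordium 60.2% and 62.4%, and fruitbody 60.2%, 61.3% and 59.6%. PC15 was lowest and HyB next, without overlap between their libraries. The libraries of PC9 overlapped those of N001 mycelium, and the 3 stages of N001 overlapped each other. In PC15 4 copies reached 50% methylation, and in HyB 16 did so, against 150 in PC9, 162 in mycelium, 167 in primordium and 163 in fruitbody.

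**Figure D1:**
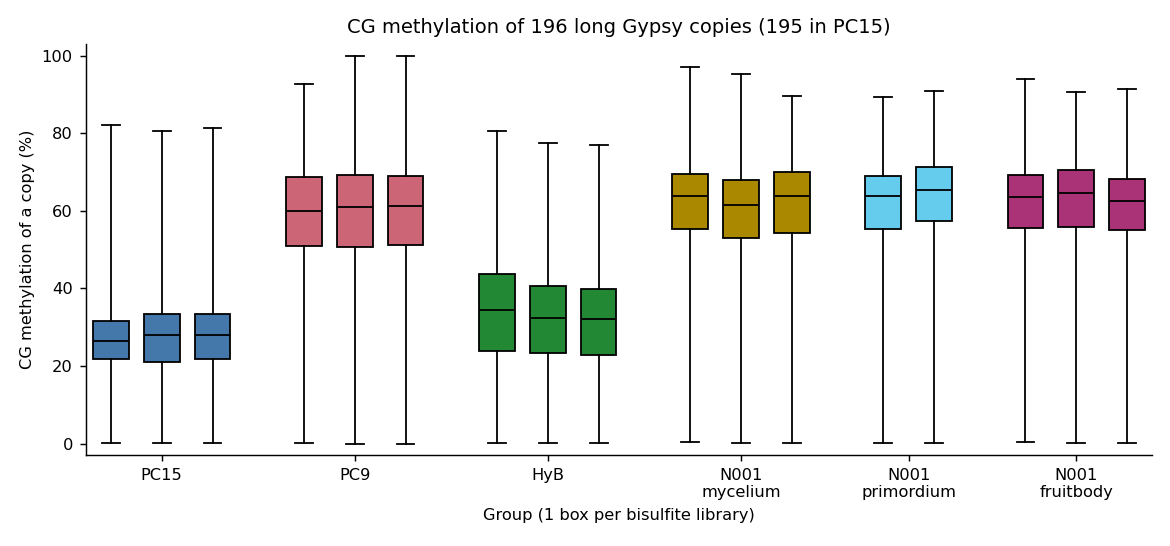
CG methylation of the long Gypsy copies in percent (y axis) in each bisulfite library (1 box per library, grouped along the x axis). Boxes span the middle quartiles with the median as a line, and whiskers reach the lowest and highest copy; the boxes of PC15 and HyB lie below those of PC9 and of the N001 stages, whose library medians over copies were 60.1% to 65.3%.

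The monokaryons differed at nearly every copy. Of 195 copies with a value in every bisulfite library, 176 were higher in PC9 than in PC15 and 5 were lower, by limma-trend on percentage points with a Benjamini-Hochberg adjusted p under 0.05 (higher in 79.4% and lower in 4.2% of all 715 TE copies tested). The median difference was 32.7 points over the copies and 28.1 points over all TE copies tested. The widest gap belonged to a copy of Gypsy_13 on scaffold 8 (2248191 to 2250203), which lies 1460 bp from the nearest gene. It had 16.4%, 14.1% and 18.2% in PC15 and 89.0%, 100% and 97.6% in PC9, a difference of 79.3 ± 2.82 points (SE, adjusted p = 4.99e-12). No PC9 library came near the PC15 values. The 100% is at the bound of the scale, which values reached in PC9 alone, and its read coverage is unknown.

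At 5 copies the order was opposite. On scaffold 10, Gypsy_16 (1314453 to 1322607) had 54.3%, 54.0% and 54.0% in PC15 and 6.0%, 14% and 0% in PC9, and Gypsy_14 on scaffold 11 (869883 to 879305) had 30.1%, 30.9% and 33.4% against 9.34%, 8.83% and 9.79%. The 0% of Gypsy_16 is likewise at the bound of the scale, with unknown read coverage. A copy of Gypsy_3 on scaffold 5 (26677 to 37192, 156 bp from a gene) was the most methylated of all in PC15, at 82.2%, 80.5% and 81.5%, and stood at 60.3%, 59.96% and 60.8% in PC9. It thus fell by 21.04 ± 1.39 points (limma, adjusted p = 3.66e-09). At a few copies 1 PC9 library went against the others. Gypsy_42 on scaffold 3 (738232 to 744290) had the widest spread there, at 72.6%, 0.545% and 75.8%, followed by Gypsy_3 on scaffold 3 (3062520 to 3072457), at 60.9%, 61.4% and 0%.

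The mated dikaryon lay close to PC15. HyB was above PC15 and below PC9 at 134 of the 195 copies, below both at 46, above both at 11, and at or between the reversed monokaryon levels at 4. It was nearer to PC15 than to PC9 at 169 copies. Shares over all TE copies are not given for these patterns, nor for other counts of copies by level or order of groups. Over all TE copies with values, mean methylation was 22.9% in PC15, 28.1% in HyB and 49.3% in PC9, so HyB lay near PC15 there too. Against PC15, 98 copies were higher and 27 lower in HyB by limma (44.6% and 9.51% of all TE copies), with a median difference of 5.77 points against 4.46 points over all TE copies. Against PC9, 5 were higher and 172 lower (4.76% and 76.5% of all TE copies), with a median of −27.0 points against −21.8 points. These comparisons share libraries with each other and with that of the monokaryons, so their values are given side by side.

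Copies below both parents included 7 of 22 of Gypsy_3, 4 of 8 of Gypsy_11, 4 of 19 of Gypsy_5 and 4 of 13 of Gypsy_7. These copies were picked because their HyB mean was below both monokaryon means, so HyB is lower than both by choice. The share of this pattern over all TE copies is not given. Their mean level was 23.6% in HyB, 29.5% in PC15, 56.7% in PC9 and 63.8% in N001 mycelium. A copy of Gypsy_7 on scaffold 1 (3222250 to 3227909) had 33.6%, 35.7% and 36.1% in PC15, 60.5%, 61.9% and 66.1% in PC9, and 22.1%, 13.7% and 12.8% in HyB. Its level in N001 mycelium was 81.1%, 80.0% and 80.9%, so it was among the least methylated copies of HyB and among the most methylated of N001. The opposite case was a copy of Gypsy_7 on scaffold 7 (877232 to 887658), at 25.3%, 22.8% and 22.99% in PC15 but 57.5%, 59.3% and 58.0% in HyB.

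The N001 dikaryon was above HyB at 182 copies and below it at 1 by limma (76.9% and 3.08% of all TE copies), with a median difference of 26.6 points against 21.6 points over all TE copies. The single lower copy was that Gypsy_7 copy on scaffold 7, at 51.4%, 48.4% and 48.8% in mycelium, 8.70 ± 1.46 points under HyB (adjusted p = 7.99e-05). The Gypsy_7 copy on scaffold 1 rose most, by 64.4 ± 2.17 points (limma, adjusted p = 5.60e-12). N001 mycelium was not a copy of PC9: it exceeded PC9 by over 10 points at 46 copies and was over 10 points below it at 35. Shares of these counts over all TE copies are not given.

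Across N001 development the levels of single copies scarcely moved. Primordium and fruitbody were each within 10 points of mycelium at all 195 copies. No copy passed the limma test for primordium against mycelium (0.14% of all TE copies higher, 0% lower), where 10 copies had an unadjusted p under 0.05, the smallest adjusted p was 0.724 and the median difference was 1.35 points. None passed for fruitbody against mycelium (0% of all TE copies), where 7 had an unadjusted p under 0.05, the smallest adjusted p was 0.679 and the median difference was 0.34 points. Without replicate 1 of fruitbody 1 copy passed. Both comparisons share the mycelium libraries. Ranks of copies, described by Spearman's rho over 196 copies, were 0.99 between mycelium and primordium and 0.98 between mycelium and fruitbody. Over the 195 copies rho was 0.20 between PC15 and PC9 and 0.60 between PC15 and HyB. Between PC9 and HyB it was 0.40 over 196 copies. The copies share families and reads, so these values carry no test.

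**Figure D2:**
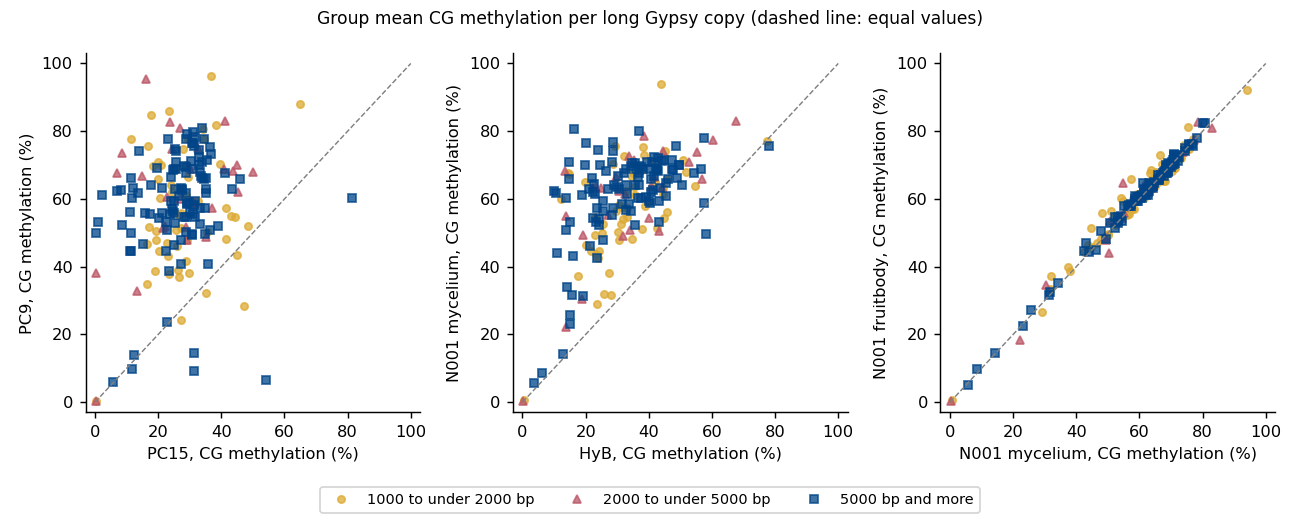
Group mean CG methylation in percent of each long Gypsy copy, for PC9 against PC15, N001 mycelium against HyB, and N001 fruitbody against mycelium (1 point per copy, marked by length class; the dashed line marks equal values). Most points of the first and second panels lie above the line, and those of the third lie along it.

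The copies with the lowest methylation averaged over the 6 groups were low in every group, which largely follows from that choice. Gypsy_27 on scaffold 2 (1455181 to 1458368, 2443 bp from a gene) averaged 0.252% in PC15 and PC9, 0.210% in HyB, 0.233% in mycelium, 0.204% in primordium and 0.246% in fruitbody. Its groups overlapped. Gypsy_10 on scaffold 2 (1934860 to 1936425, 204 bp from a gene) ranged from 0.264% in PC15 to 0.745% in mycelium, and Gypsy_27 on scaffold 4 (307739 to 315849) from 5.66% in PC15 to 10.4% in primordium. A Gypsy_21 copy on scaffold 5 (2743135 to 2752058, 285 bp from a gene) was low everywhere except in PC9. It had 0.342%, 0.326% and 0.368% in PC15, 50.9%, 49.6% and 49.1% in PC9, and 3.48%, 4.16% and 3.72% in HyB. In mycelium it had 4.99%, 5.46% and 6.48%, in primordium 4.89% and 5.02%, and in fruitbody 5.0%, 5.04% and 5.23%. The PC9 libraries alone stood apart, by 49.5 ± 0.48 points from PC15 (limma, adjusted p = 4.61e-17).

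Messenger RNA from long Gypsy copies was abundant in PC15, lower in HyB and scarce in PC9. Summed over the 196 copies, it made up 6093, 6008 and 6091 RPM in the PC15 libraries, 226, 143 and 184 RPM in PC9, and 1771, 1522.5 and 1494 RPM in HyB. N001 mycelium had 614, 544 and 520.3 RPM, primordium 506, 444 and 434 RPM, and fruitbody 471, 375 and 307 RPM. The PC15 mean was 32.9 times that of PC9 and 3.80 times that of HyB, without overlap of libraries. HyB was 8.65 times PC9 and 2.85 times N001 mycelium, and mycelium was 1.21 times primordium and 1.46 times fruitbody, all without overlap. Of the N001 sums, Gypsy_29 on scaffold 10 alone gave on average 299, 234 and 165 RPM in mycelium, primordium and fruitbody. Because bulk mycelium was sequenced, more cells with transcripts and more transcript per cell cannot be told apart. All strains were measured on the same list of copies. Of all 1051 TE copies, 719 had a methylation value in every PC9 library, against 972 to 978 in the other groups. Whether each copy is present in full in PC9 was not tested, so missing sequence and low RNA there cannot be told apart. Long Gypsy copies took 41.5% of the TE reads of PC15 mRNA, 46.8% in HyB, 8.09% in PC9 and 27.8% to 37.2% in the N001 stages.

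Per copy, 157 of the 196 passed the filter on low counts, which a copy could do through 1 group alone, and were tested for mRNA by edgeR's quasi-likelihood test with the library totals as library sizes. In PC9 2 copies were higher and 147 lower than in PC15 (3.74% and 84.8% of all 428 TE copies tested), with a median log2 fold change of −8.00 over the copies and −7.36 over all TE copies. In HyB 6 were higher and 122 lower than in PC15 (4.44% and 73.4% of all TE copies; medians −3.59 and −3.66), and 90 were higher and 4 lower than in PC9 (43.7% and 5.37%; medians 3.29 and 2.48). In N001 mycelium no copy was higher and 89 were lower than in HyB (1.64% and 37.6%; medians −3.30 and −1.90). Of all 196 copies, 163 had their highest group mean in PC15, 20 in HyB, 5 in mycelium, 5 in fruitbody, 3 in PC9 and none in primordium.

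These splits depend on what the reads are scaled to, since TE copies as a whole took very different shares of the libraries. TMM scaling inside the TE table, which takes the typical TE copy as unchanged, moved the median log2 fold change of all TE copies by 3.72 in PC9 against PC15, by 2.29 in HyB against PC15, by −1.21 in HyB against PC9 and by 0.88 in mycelium against HyB. With it 123 of the copies were tested: 15 were higher and 95 lower in PC9 than in PC15 (26.1% and 58.9% of all TE copies), 24 higher and 49 lower in HyB than in PC15 (24.2% and 37.6%), and 68 higher and 12 lower in HyB than in PC9 (40.1% and 17.8%). In mycelium against HyB 6 were higher and 72 lower (9.55% and 36.6%). The log2 ratio of the summed mRNA moved from −5.04 with library totals to −1.21 with TMM in PC9 against PC15, from 3.11 to 1.70 in HyB against PC9 and from −1.51 to −0.55 in mycelium against HyB. In HyB against PC15 its direction turned, from −1.93 to 0.49. RNA changes below are relative to the library totals unless TMM is named.

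**Figure D3:**
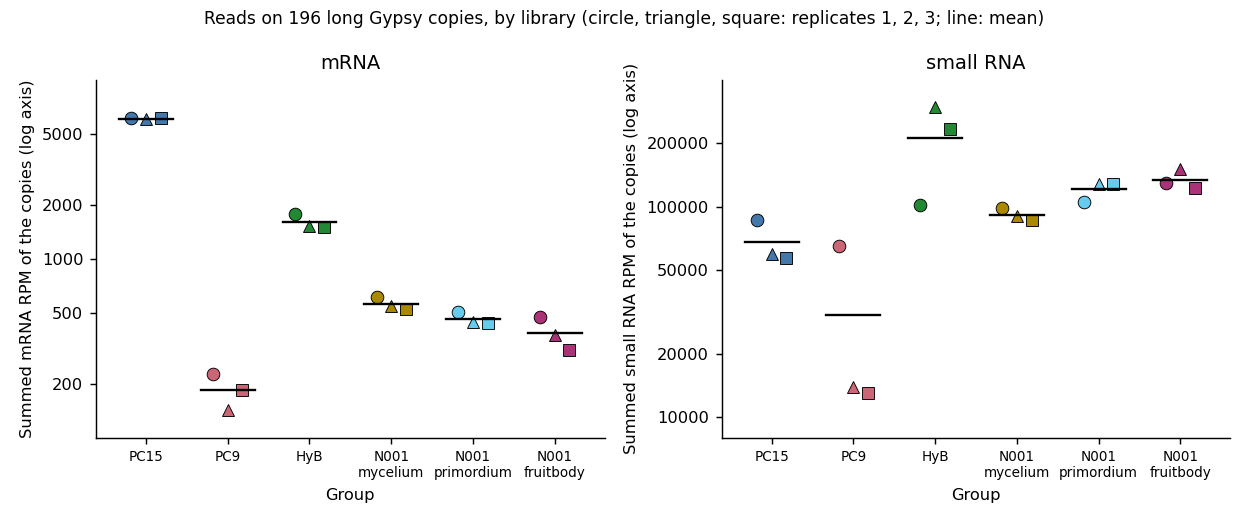
Summed mRNA (left) and small RNA (right) of the 196 long Gypsy copies in RPM on log axes, for each library of the 6 groups (circle, triangle and square are replicates 1, 2 and 3; the line is the mean). PC15 stands highest in mRNA, its 3 libraries between 6008 and 6093 RPM, while in small RNA replicate 1 lies below the other HyB libraries and above the other PC9 libraries.

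A few copies carried much of this mRNA. The most abundant was Gypsy_29 on scaffold 10 (1355556 to 1363838), which overlaps 4 listed genes and fragments of HELPO1.2 and HELPO2. It had 964, 941 and 992 RPM in PC15, 4.44, 3.68 and 5.90 RPM in PC9, and 271, 258 and 233 RPM in HyB. Mycelium had 377, 261 and 258 RPM, primordium 238, 231 and 234 RPM, and fruitbody 197, 183 and 116 RPM. Only PC9 was low, 7.69 ± 0.54 log2 units under PC15 (edgeR, adjusted p = 5.86e-13). Its methylation was low in all groups, from 9.76% in PC9 to 14.5% in fruitbody, and in PC9 it was 1.84 ± 0.65 points lower than in PC15 (limma, adjusted p = 0.0169), so its mRNA and its methylation were both lowest in PC9. Reads of its 4 genes count towards the copy as well.

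Several copies were far more transcribed in PC15 and HyB than in PC9 and N001 mycelium. Gypsy_24 on scaffold 1 (3713958 to 3723509, 59 bp from a gene) had 253, 318 and 289 RPM in PC15, 152, 277 and 250 RPM in HyB, 0.202, 0.0818 and 0.0894 RPM in PC9, and 2.69, 1.31 and 0.619 RPM in mycelium. Its methylation averaged 31.03% in PC15, 36.8% in HyB, 68.8% in PC9 and 69.7% in mycelium. The mRNA fell by 11.1 ± 0.83 log2 units from PC15 to PC9 (edgeR, adjusted p = 1.77e-12) and by 7.18 ± 0.69 from HyB to mycelium (adjusted p = 6.18e-10). Gypsy_34 on scaffold 1 (4266721 to 4274251), 972 bp from a gene, averaged 135 RPM in PC15 and 120 RPM in HyB, against 0.0569 RPM in PC9 and 0.0885 RPM in mycelium.

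Gypsy_22 on scaffold 7 (2723429 to 2732982), which lies inside a copy of Gypsy_2, gave 74.1, 78.3 and 75.8 RPM in PC15 and 17.2, 28.0 and 24.7 RPM in HyB. It had no read in any PC9 or mycelium library. With a floor of 3 reads over a group, its mRNA was at least 1812-fold lower in PC9 than in PC15 and at least 568-fold lower in mycelium than in HyB. Its methylation was 31.1% in PC15, 36.8% in HyB, 79.7% in PC9 and 80.2% in mycelium. Gypsy_13 on scaffold 3 (624505 to 639158), nested in a copy of Gypsy_40 and overlapping 2 genes, was transcribed in PC15 alone, at 69.8, 139 and 165 RPM, against 0.105, 0.0509 and 0.0480 RPM in HyB, where its methylation was 49.5%. The fall from PC15 to HyB was 10.7 ± 0.77 log2 units (edgeR, adjusted p = 4.65e-12).

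Replicates did not always agree. Gypsy_29 on scaffold 2 (2330730 to 2340718) had 63.6 RPM in PC15 replicate 1 but 954 and 798 RPM in replicates 2 and 3, and in HyB it had 9.36, 1.17 and 1.39 RPM. The groups still did not overlap, and PC9 had 0.727, 0.491 and 0.938 RPM. Both copies higher in PC9 than in PC15 overlap each other on scaffold 11: Gypsy_14 (869883 to 879305), which lies within Gypsy_13 (865271 to 884435). Gypsy_14 had 0.657, 0.213 and 0.212 RPM in PC15 and 15.2, 4.95 and 4.92 RPM in PC9, a rise of 4.50 ± 0.70 log2 units (edgeR, adjusted p = 1.06e-06) at the copy whose methylation was 31.5% in PC15 and 9.32% in PC9. The Gypsy_13 call was lost without replicate 1 of PC9 (adjusted p = 0.0962), and the reads of Gypsy_14 count towards it as well.

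Few copies were transcribed outside PC15 and HyB. At 1 RPM or more stood 147 copies in PC15, 77 in HyB, 13 in PC9, 15 in mycelium, 15 in primordium and 14 in fruitbody. The number of copies that passed 1 RPM was 10 in all 6 groups, 13 in all N001 stages and 11 in both mycelium and PC9. Of the 77 in HyB, 74 also passed in PC15 and 62 did not pass in mycelium. Shares at 1 RPM over all TE copies are not given. Summed mRNA of all 1051 TE copies, these included, was also highest in PC15. It averaged 14642 RPM there, 3412 RPM in HyB, 2300 RPM in PC9 and 2036 RPM in mycelium. Whether the counts at 1 RPM are particular to long Gypsy copies was not tested. The 5 most abundant copies held 35.7% of the long Gypsy mRNA in PC15, 47.3% in HyB and 72.5% in PC9, and 87.2%, 90.1% and 87.2% in mycelium, primordium and fruitbody.

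In mycelium the median methylation of the 15 transcribed copies was 31.8%, and that of the other 181 was 63.5%. In PC9 these medians were 40.9% and 61.3%, in HyB 28.8% and 35.4%, and in PC15 27.4% and 27.2%. Low methylation did not hold for every transcribed copy: in mycelium their levels ran from 0.233% to 69.7%. Gypsy_29 on scaffold 5 (380083 to 398290), which spans a HELPO2 copy and lies 459 bp from a gene, had 56.4% methylation in mycelium beside 36.8, 12.4 and 12.96 RPM. It was also the most abundant copy of PC9, at 75.2, 47.9 and 63.1 RPM with 40.9% methylation, against 158, 142 and 131 RPM in PC15. Over all copies, Spearman's rho between methylation and mRNA per kb was −0.13 in PC15, −0.13 in PC9, −0.29 in HyB and −0.17 in mycelium. Pearson's correlation with log2 mRNA per kb was −0.21, −0.40, −0.32 and −0.55 in the same order. Both cover 195 copies in PC15 and 196 elsewhere, with family and read sharing between copies and no test. The median copy had only 0.042 RPM in PC9 and 0.031 RPM in mycelium, and 56 and 48 copies had no read. Ranks in these groups therefore rest largely on very few reads.

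**Figure D4:**
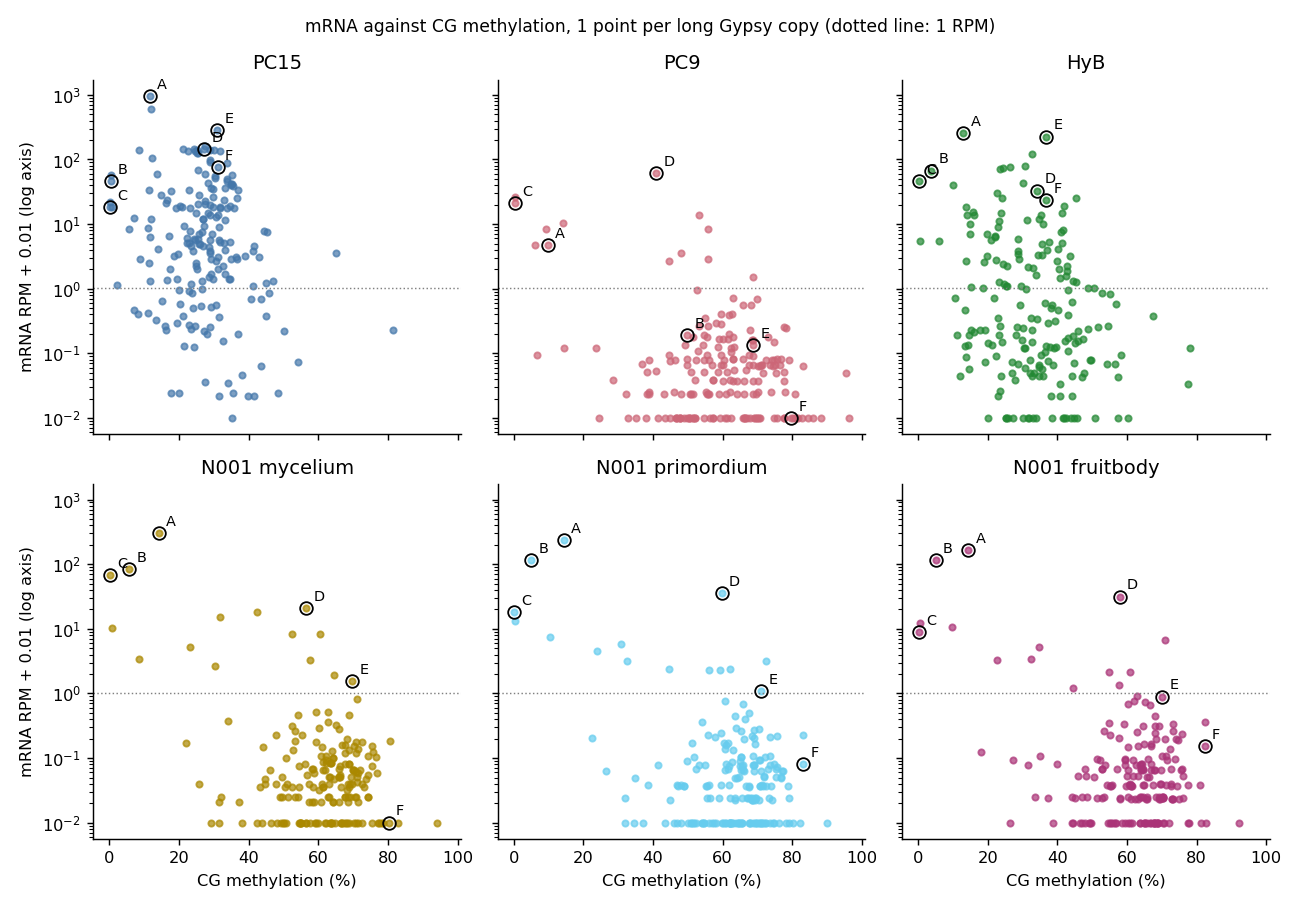
mRNA in RPM plus 0.01 on a log axis against CG methylation in percent for each long Gypsy copy, 1 panel per group (the dotted line marks 1 RPM). A and D are Gypsy_29 on scaffolds 10 and 5, B is Gypsy_21 on scaffold 5, C is Gypsy_27 on scaffold 2, E is Gypsy_24 on scaffold 1 and F is Gypsy_22 on scaffold 7; in the N001 panels most copies lie under the line at over 50% methylation, with A, B and C at the upper left.

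The copies with the lowest methylation stayed transcribed in several groups. Gypsy_21 on scaffold 5, methylated in PC9 alone, gave 38.9, 51.8 and 47.8 RPM in PC15, 0.162, 0.164 and 0.223 RPM in PC9 and 43.2, 78.6 and 80.4 RPM in HyB. Mycelium had 71.2, 96.8 and 81.5 RPM, primordium 126, 112 and 105 RPM, and fruitbody 136, 106 and 104 RPM. PC9 was the only low group, 7.95 ± 0.56 log2 units under PC15 (edgeR, adjusted p = 6.42e-13), and HyB was 8.49 ± 0.57 above PC9 (adjusted p = 9.22e-13). Gypsy_27 on scaffold 2, with almost no methylation in any group, was transcribed in all, with 19.1, 17.1 and 18.5 RPM in PC15, 33.2, 11.7 and 18.7 RPM in PC9, and 43.99, 76.6 and 79.9 RPM in mycelium. Its monokaryon libraries overlapped (log2 difference 0.22 ± 0.46, edgeR adjusted p = 0.647). Gypsy_10 on scaffold 2, likewise hardly methylated, had 28.0, 21.2 and 30.6 RPM in PC9 and 5.35, 5.09 and 6.15 RPM in HyB, and fell by 2.26 ± 0.49 log2 units (edgeR, adjusted p = 0.000279).

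A second Gypsy_21 copy, on scaffold 2 (2141216 to 2150108, 509 bp from a gene), did not follow its methylation. The monokaryons differed widely in methylation, 0.849% in PC15 and 53.2% in PC9, yet its mRNA was 17.1, 16.7 and 20.8 RPM in PC15 and 16.6, 10.8 and 13.5 RPM in PC9 (log2 difference −0.42 ± 0.41, edgeR adjusted p = 0.338). In HyB it had 23.5% methylation and 78.9, 62.7 and 70.3 RPM, which was 1.95 ± 0.42 log2 units above PC15 (edgeR, adjusted p = 0.000153). In N001 it was 42.4% methylated in mycelium, 44.7% in primordium and 44.6% in fruitbody, but its mRNA fell from 20.1, 16.3 and 17.95 RPM in mycelium to 3.78, 1.78 and 1.58 RPM in primordium and 1.28, 1.39 and 0.977 RPM in fruitbody. Both falls passed edgeR's test, by 2.92 ± 0.45 (adjusted p = 6.78e-05) and by 3.89 ± 0.47 log2 units (adjusted p = 1.43e-06), without a change of methylation past the limma test.

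That copy was 1 of few whose mRNA changed with development. In primordium against mycelium 1 copy was higher and 4 were lower by edgeR (0.467% and 2.34% of all TE copies), and with TMM 1 was higher and 2 lower (0.637% and 1.91%). In fruitbody 3 were higher and 4 lower (1.4% and 2.34%), and with TMM 4 were higher and 4 lower (2.55% and 3.18%). DESeq2 called 8 copies for primordium and 11 for fruitbody in either direction (4.5% and 5.07% of all TE copies with an adjusted p). These calls were fragile. Without single libraries the count for primordium fell from 5 to 1 (without mycelium replicate 2 or 3, or primordium replicate 2 or 3) or 2 (without primordium replicate 1), and for fruitbody from 7 to 3 (without mycelium replicate 2 or 3, or fruitbody replicate 2) or 4 (without mycelium replicate 1, or fruitbody replicate 1 or 3). The Gypsy_21 copy on scaffold 2 kept its call in each. Gypsy_27 on scaffold 2 had 26.7, 14.1 and 12.8 RPM in primordium and 5.05, 10.8 and 10.5 RPM in fruitbody, a fall by 2.93 ± 0.49 log2 units from mycelium to fruitbody (edgeR, adjusted p = 0.000182). A Gypsy_3 copy of scaffold 9 (366204 to 376144) was higher in fruitbody, from 1.195, 0.876 and 0.398 RPM in mycelium to 12.1, 4.89 and 3.30 RPM in fruitbody, a rise of 3.02 ± 0.53 log2 units (edgeR, adjusted p = 0.000345) at 71.0% methylation in both.

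Small RNA from long Gypsy copies had its highest group mean in HyB and varied strongly between libraries. It summed to 85997, 59546 and 57166 RPM in PC15, to 64788, 13898 and 13032 RPM in PC9, and to 101638, 296761 and 234234 RPM in HyB. The group means were 91387 ± 6124 RPM in mycelium, 120955 ± 13333 RPM in primordium and 134258 ± 14691 RPM in fruitbody (SD, n = 3 each). All HyB libraries lay above those of PC15, PC9 and mycelium, with mean ratios of 3.12, 6.90 and 2.31, whereas replicate 1 of HyB lay below all libraries of primordium and fruitbody. With TMM these ratios were 3.91, 1.39 and 1.06, and over the copies that overlap no other TE copy 4.56, 11.6 and 5.76. The ratio over PC9 was 15.7 without PC9 replicate 1. PC15 and PC9 overlapped through replicate 1 of PC9. Long Gypsy copies took 9.93% ± 2.30 of the TE small RNA in PC15, 19.4% ± 1.09 in PC9 and 35.2% ± 18.2 in HyB (SD, n = 3), and 30.1% to 35.6% in the N001 stages.

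For small RNA, edgeR tested 178 copies with the library totals. Of these, 25 showed more and 56 less in PC9 than in PC15 (16.9% and 29.4% of all 633 TE copies tested), with medians of −1.67 log2 units over the copies and −1.14 over all TE copies. In HyB 41 were higher and 5 lower than in PC15 (19.6% and 3% of all TE copies; medians 1.46 and 0.91), and 74 were higher and 5 lower than in PC9 (33.2% and 2.21%; medians 2.54 and 1.98). In mycelium 3 were higher and 42 lower than in HyB (1.11% and 14.8%; medians −1.17 and −0.33). TMM shifted the median of all TE copies by 2.49, 0.35, −2.06 and 1.08 log2 units in these comparisons. With it 60 copies were higher and 28 lower in PC9 than in PC15 (38% and 18.3% of all TE copies), so that this split turned round, and so did the summed small RNA, from a log2 ratio of −1.14 with library totals to 1.49. The other splits with TMM were 66 higher and 5 lower in HyB than in PC15 (28.1% and 3.12%), 45 and 30 in HyB than in PC9 (19.1% and 18.8%), and 23 and 41 in mycelium than in HyB (15.1% each).

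Single libraries decided part of these counts. HyB against PC15 fell from 46 calls to 26, 12 and 17 without PC15 replicate 1, 2 and 3, and to 22 and 17 without HyB replicate 2 and 3. HyB against PC9 rose from 79 to 132 without PC9 replicate 1. Mycelium against HyB fell from 45 to 22, 14 and 14 without mycelium replicate 1, 2 and 3. Leaving out replicate 1 of PC15, PC9 and HyB together, chosen after the data were seen, gave 82, 137 and 68 calls in these comparisons. Shares over all TE copies are not given for fits without some libraries. Whether these shifts are particular to long Gypsy copies was not tested. In development no copy passed edgeR's test (0% of all TE copies in either stage against mycelium), with 11 unadjusted p-values under 0.05 for primordium and 31 for fruitbody. DESeq2 called 9 copies for fruitbody and none for primordium (2.58% and 0% of all TE copies with an adjusted p). The summed ratios over mycelium, 1.32 for primordium and 1.47 for fruitbody, turned to log2 ratios of −0.05 and −0.07 with TMM.

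The small RNA came from few loci, and different ones by strain. The 5 most abundant copies held 25.1% of it in PC15, 32.6% in PC9 and 41.9% in HyB, but 66.8%, 66.6% and 64.2% in mycelium, primordium and fruitbody. Gypsy_5 on scaffold 1 (3815535 to 3824268), which contains a TIR1 copy and lies 429 bp from a gene, led in N001. It gave 93.3, 71.9 and 63.1 RPM in PC15, 3215, 699 and 951 RPM in PC9, and 1697, 9360 and 11207 RPM in HyB. Mycelium had 51901, 28116 and 26001 RPM, primordium 47399, 68893 and 68175 RPM, and fruitbody 61919, 67222 and 66235 RPM. PC15 was lowest and N001 highest, without overlap. PC9 was 4.41 ± 0.82 and HyB 6.60 ± 0.91 log2 units above PC15 (edgeR, adjusted p = 0.000507 and 8.12e-05). The step from HyB to mycelium, 2.25 ± 0.74, passed at an adjusted p of 0.0437 but at none of the settings that left out 1 library (0.0575 to 0.139). Its mRNA averaged 15.06 RPM in PC15, 0.0691 RPM in PC9, 5.71 RPM in HyB and 0.0404 RPM in mycelium, so it was highest where small RNA was lowest, but both were higher on average in HyB than in PC9. Its methylation was 24.9% in PC15, 46.4% in PC9, 20.99% in HyB and 63.0% in mycelium.

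An overlapping pair on scaffold 4, Gypsy_5 (1038235 to 1044128) and Gypsy_6 (1039893 to 1045270), led in HyB, and reads in the shared stretch count towards both. The Gypsy_5 copy had 2058.5, 3820 and 3786 RPM in PC15, 22.6, 0.784 and 1.25 RPM in PC9, and 11064, 35661 and 31170 RPM in HyB, against 49.97, 161 and 173 RPM in mycelium. It was high in PC15 and HyB and low in PC9 and N001, with HyB 11.5 ± 1.47 log2 units above PC9 (edgeR, adjusted p = 7.43e-05) and mycelium 7.66 ± 1.27 below HyB (adjusted p = 0.000980). Gypsy_3 on scaffold 7 (2857283 to 2867319) had 2031, 319 and 218 RPM in PC15, 196, 6.27 and 104 RPM in PC9, 1289, 23156 and 15574 RPM in HyB and 87.8, 37.2 and 42.9 RPM in mycelium. Its small RNA varied widely between the HyB libraries, while its methylation there was 16.6%, 13.6% and 14.4%, below both monokaryons (30.2% and 56.1% on average), and its mRNA 11.7, 8.71 and 9.41 RPM.

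Copies with much small RNA stood at different levels of methylation. Gypsy_7 on scaffold 3 (1037823 to 1045635), which contains a Copia_3 copy and lies 72 bp from a gene, averaged 7250 RPM in mycelium, 8333 RPM in primordium and 7606 RPM in fruitbody, with 23.01%, 23.8% and 22.6% methylation. In PC9 it had 3979, 101.9 and 77.5 RPM, with replicate 1 far above the others. Gypsy_29 on scaffold 5 had 1087, 16719 and 15663 RPM in mycelium with 56.4% methylation. Over all copies, rho between small RNA per kb and methylation lay between −0.09 and 0.14 in the 6 groups, and rho between small RNA and mRNA per kb was 0.32 in PC15 and between −0.05 and 0.13 elsewhere (n = 195 or 196 copies, described without a test).

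Families shared the strain pattern and differed in degree. Among the 13 families with at least 5 copies, mean methylation ran from 17.2% for Gypsy_4 to 33.3% for Gypsy_18 in PC15, from 45.4% for Gypsy_17 to 74.6% for Gypsy_13 in PC9, from 22.5% for Gypsy_11 to 41.0% for Gypsy_18 in HyB, and from 50.4% for Gypsy_4 to 69.2% for Gypsy_18 in mycelium. Every one of them was higher in PC9 and in mycelium than in PC15. Gypsy_13 and Gypsy_6 were higher in PC9 (74.6% ± 1.79 and 72.2% ± 0.79) than in mycelium (63.2% ± 1.23 and 64.8% ± 1.23), whereas Gypsy_44 and Gypsy_17 were lower in PC9 (52.9% ± 1.72 and 45.4% ± 0.35) than in mycelium (63.6% ± 1.48 and 53.2% ± 0.94; SD, n = 3 libraries). Differences between families made up 16.7% of the variance between copies in PC15, 30.4% in PC9 and 17.6% to 20.2% in HyB and the N001 stages, and copies of 1 family still differed by a standard deviation of 10.5 to 12.3 points. These shares of variance are not corrected for the number of families, which by itself raises them, and nested copies enter separately.

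**Figure D5:**
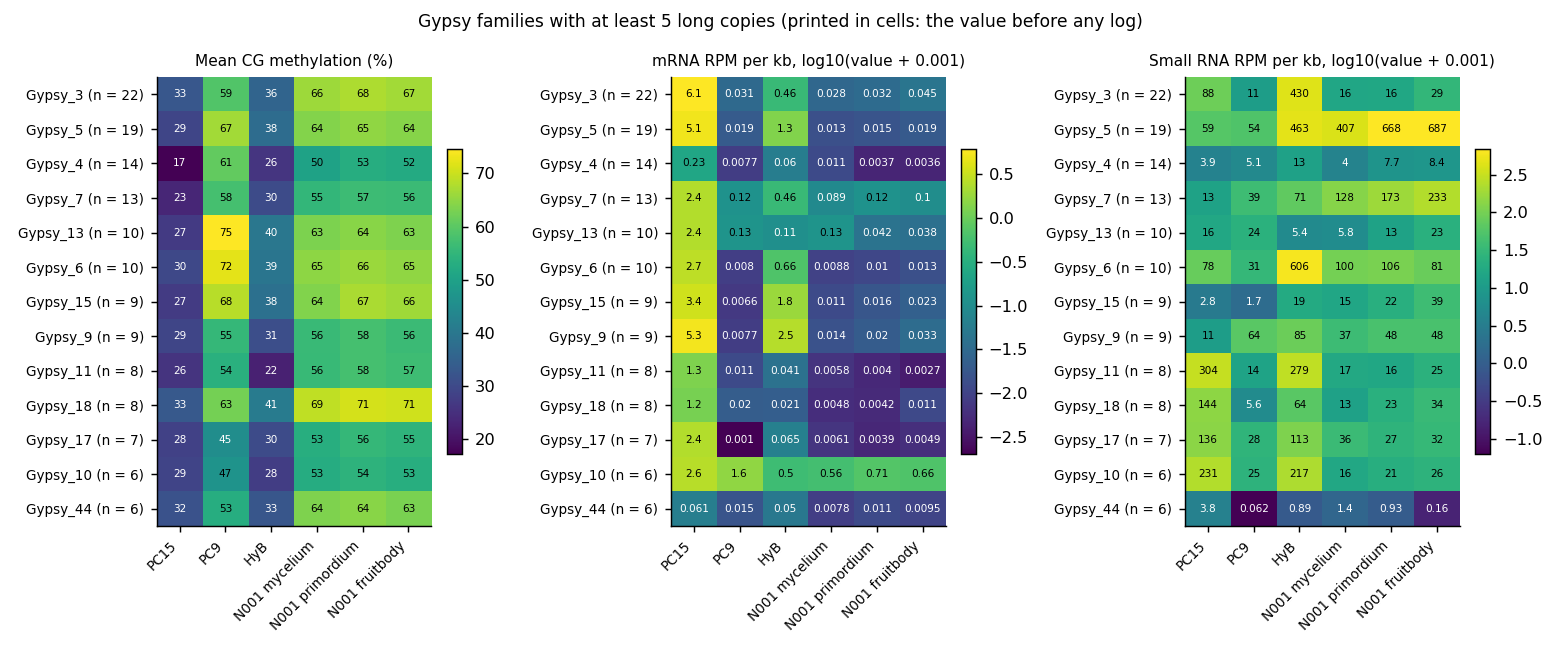
Mean CG methylation in percent, mRNA RPM per kb and small RNA RPM per kb of the 13 Gypsy families with at least 5 long copies (rows, with the number of copies) in the 6 groups (columns); colours of the RNA panels are log10 of the value plus 0.001, and the cells print the value itself. Methylation is lowest in the PC15 or HyB column in all rows, mRNA is highest in the PC15 column in all rows, and the small RNA maximum changes column from family to family.

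In mRNA, Gypsy_3 was the richest large family in PC15, with 1239 ± 336 RPM over 22 copies, against 6.27 ± 2.27 RPM in PC9, 93.6 ± 14.7 RPM in HyB and 5.78 ± 0.86 RPM in mycelium. Gypsy_5 had 546 ± 83.2 RPM in PC15, 142 ± 92.1 RPM in HyB, 2.07 ± 0.84 RPM in PC9 and 1.42 ± 0.15 RPM in mycelium. In Gypsy_10 HyB was below PC9, with 52.4 ± 2.05 RPM in PC15, 32.0 ± 5.48 RPM in PC9, 10.04 ± 0.80 RPM in HyB and 11.4 ± 5.18 RPM in mycelium. Gypsy_13 was also lower in HyB than in PC9 (log2 ratio −0.25), and Gypsy_18 hardly differed (0.04). With TMM the summed direction turned round for Gypsy_10 and Gypsy_44 in PC9 against PC15, for Gypsy_4, Gypsy_5, Gypsy_6, Gypsy_7, Gypsy_9, Gypsy_10, Gypsy_15 and Gypsy_44 in HyB against PC15, and for Gypsy_18 in HyB against PC9.

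In small RNA the families split by strain. Gypsy_3 had 18042 ± 12201 RPM in PC15, 2259 ± 1341 RPM in PC9, 87681 ± 69146 RPM in HyB and 3203 ± 1648 RPM in mycelium, and Gypsy_6 4228 ± 306, 1676 ± 1193, 32711 ± 14243 and 5396 ± 2147 RPM. Gypsy_11 was high in PC15 and HyB, at 6201 ± 1317 and 5686 ± 3258 RPM, and low in PC9 and mycelium, at 285 ± 428 and 356 ± 48.6 RPM. Gypsy_7 was lowest in PC15, at 1270 ± 304 RPM, and had 12322 ± 3082 RPM in mycelium, 16674 ± 304 RPM in primordium and 22373 ± 6214 RPM in fruitbody. Its HyB sum was above both monokaryons, by log2 ratios of 2.43 over PC15 and 0.88 over PC9, and mycelium was 0.85 above HyB. Gypsy_5 had 6392 ± 781 RPM in PC15, 5783 ± 6763 RPM in PC9, 49935 ± 23815 RPM in HyB and 43856 ± 12667 RPM in mycelium, of which the copy on scaffold 1 gave 35339 RPM (SD, n = 3 throughout). With TMM the summed direction turned round for Gypsy_5, Gypsy_6 and Gypsy_15 in PC9 against PC15, for Gypsy_10, Gypsy_11 and Gypsy_17 in HyB against PC15, for Gypsy_4, Gypsy_7 and Gypsy_9 in HyB against PC9, and for Gypsy_5 and Gypsy_15 in mycelium against HyB. It also turned round for Gypsy_3, Gypsy_6, Gypsy_7, Gypsy_9 and Gypsy_10 in primordium against mycelium, and for Gypsy_9, Gypsy_10 and Gypsy_11 in fruitbody against mycelium.

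Above 1000 bp, length said little about methylation. Copies of 1000 to under 2000 bp, of 2000 to under 5000 bp and of at least 5000 bp averaged 28.2%, 26.8% and 26.6% in PC15, 56.6%, 62.6% and 58.4% in PC9, 32.9%, 34.2% and 32.6% in HyB, and 56.9%, 59.8% and 61.0% in mycelium. Spearman's rho between length and methylation lay between −0.08 and 0.12 in the 6 groups. Per kb of sequence, mRNA in these classes was 3.32, 5.69 and 5.25 RPM in PC15, 0.394, 0.226 and 0.132 RPM in PC9, 0.219, 0.954 and 1.48 RPM in HyB and 0.156, 0.706 and 0.477 RPM in mycelium. Small RNA per kb was 88.5, 52.6 and 55.6 RPM in PC15 and 26.9, 119 and 16.7 RPM in PC9. It was 74.8, 88.4 and 196 RPM in HyB and 32.3, 85.1 and 80.4 RPM in mycelium. In PC9 copies of 2000 to under 5000 bp summed to 11879 ± 16822 RPM of small RNA (SD, n = 3), with libraries from 1984 to 31302 RPM. Single copies weighed on the mRNA: Gypsy_27 on scaffold 2 averaged 66.8 of 70.4 RPM in that class in mycelium. Gypsy_10 on scaffold 2 averaged 26.6 of 29.6 RPM in the shortest class in PC9. Gypsy_29 on scaffold 10 averaged 299 of 477 RPM in the longest class in mycelium.

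The longest copy, Gypsy_19 on scaffold 7 (2688298 to 2709129, 20831 bp, overlapping 2 genes), had 201, 137 and 146 RPM of mRNA in PC15, 77.8, 71.5 and 73.1 RPM in HyB, and at most 0.299 RPM in any PC9 or mycelium library. Its methylation was 27.4% in PC15, 24.5% in HyB, 62.5% in PC9 and 70.2% in mycelium. Just inside the length limit were 2 copies of Gypsy_15, of 1008 bp on scaffold 2 (358875 to 359883) and of 1009 bp on scaffold 9 (483377 to 484386), with 20.1% and 29.7% in PC15 and 65.9% and 38.2% in PC9. Just outside were 2 copies of Gypsy_9, of 944 bp on scaffold 4 (54268 to 55212) and of 948 bp on scaffold 1 (4097425 to 4098373), with 30.5% and 25.9% in PC15 and 66.1% and 66.3% in PC9.

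The densest stretch of 500000 bp held 17 copies, between 361657 and 744290 on scaffold 3. Their mean methylation was 28.8% ± 1.01 in PC15, 42.8% ± 2.62 in HyB, 62.2% ± 2.99 in PC9 and 64.8% ± 0.23 in mycelium. Their summed mRNA was 390.6 ± 65.4 RPM in PC15, 6.63 ± 4.31 RPM in HyB, 1.28 ± 0.90 RPM in PC9 and 0.602 ± 0.196 RPM in mycelium (SD, n = 3). Much of the PC15 sum came from 1 nested locus. There Gypsy_15 (626646 to 637966) lies in Gypsy_13 (624505 to 639158), and Gypsy_13 in Gypsy_40 (624141 to 640558). Gypsy_13 and Gypsy_40 averaged 124.7 and 125.4 RPM in PC15, and reads in a shared stretch count towards each copy. Over all 196 copies HyB held a larger share of the PC15 mRNA than in this stretch, a difference that was not tested.

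In other TE copies too, PC15 was lowest and HyB next in mean methylation, at other levels, while PC9 and mycelium did not keep 1 order. The 265 shorter Gypsy copies with PC9 values averaged 18.6% in PC15, 44.9% in PC9, 26.5% in HyB and 42.9% in mycelium, and the 75 long copies of other TE classes averaged 18.8%, 47.5%, 28.5% and 47.3%. The 90 long copies of Gypsy_1, Gypsy_2 and Gypsy_20 stood at 27.2%, 52.8%, 28.5% and 57.1%. Their small RNA was larger in PC15, 500293 ± 10255 RPM against 67569 ± 16003 RPM for the 196 copies, but smaller in mycelium, 13664 ± 3006 RPM against 91387 ± 6124 RPM. A further 41 long Gypsy copies outside those 3 families lacked complete PC9 values and are not members. They averaged 26.3% in PC15, 29.1% in HyB and 53.8% in mycelium. These sets are set beside the long Gypsy copies as a description without a test.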

How the data were processed

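Methylation was deposited by the authors as a fraction from 0 to 1 per TE copy, per the file headers, and was turned into percent. Small RNA and mRNA on TE copies were deposited as counts, per the file headers. Gene mRNA was deposited as RPKM, per the file headers, and served to recover library totals: 95.5% to 95.8% of its values were whole reads within 0.01. The submitters' processing notes name FastQC and STAR for mRNA and BS-Seeker2 for methylation. The genome build, counting program, strand setting and treatment of multiply matching reads are unknown: they are not given in the sources used here. Similar copies may share reads.

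The members, lists and tests were chosen with earlier results of these data known. Earlier work scaled counts by TMM; here library totals are the main scaling. All 6 groups entered each fit, with no other term, and p-values were two-sided and adjusted by the Benjamini-Hochberg method over all TE copies tested in a comparison, with a threshold of 0.05. For methylation, limma-trend (package version 3.58.1 under R 4.3.3) was run on copies with a value in all 17 libraries. The count test was the quasi-likelihood one of edgeR (version 4.0.16) after its filter by expression, with a prior count of 2. The scripts were tested on simulated data. Separate cultures are not described beyond "biological replicates", so p-values measure the spread between these samples. Errors given as SE or SD include the spread between libraries, and floors of 3 reads cover counting error only. Copies named were, per assay and comparison, up to 3 rises and 3 falls without overlap of libraries, the extremes of each level, the longest copies and those at the length limit, and not all are printed; others named were chosen after their values were seen. Alternatives were TMM, DESeq2 1.42.0, no filter, an arcsine scale, fits of the compared groups alone, merged libraries, a replicate block, and leaving out single libraries. Gene mRNA of replicates 2 and 3 differed little in HyB and in primordium (chi-square per degree of freedom 3.77 and 1.56) and were kept apart.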

Additional observations from a re-analysis of the deposited data

How the results depend on the processing

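With TMM the small RNA split of PC9 against PC15 and the summed RNA and family sums named in the report changed direction. Of 183 counts under an alternative, 152 stayed within 1.5 times the reported one, and of 768 values of named copies 690 kept their call and 78 lost it; the cause was not tested. Small RNA of HyB against PC15 gave 71 calls with TMM, 12 to 55 without single libraries, and 82 without replicate 1 of PC15, PC9 and HyB. Under the same settings HyB against PC9 gave 59 to 132 and 137, and mycelium against HyB 14 to 35 and 68. Fruitbody against mycelium gave 9 small RNA calls with DESeq2. For mRNA, HyB against PC15 gave 73 calls with TMM. Primordium against mycelium gave 8 with DESeq2, 3 with TMM, 1 with near-identical libraries merged and 1 to 6 without single libraries. Fruitbody gave 11 with DESeq2 and 3 to 4 without single libraries. Methylation of fruitbody against mycelium gave 0 to 1. For settings that left out or merged libraries, shares over all TE copies are not given. Weighted by length, mean methylation was 26.3% in PC15 and 58.1% in PC9. Copies that overlap no other TE copy summed to 22133, 100913, 17530.0, 24037 and 31702 RPM of small RNA in PC15, HyB, mycelium, primordium and fruitbody, and to 3007, 82.3, 960.3, 210.4, 174 and 171 RPM of mRNA in PC15, PC9, HyB, mycelium, primordium and fruitbody.

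Replicate numbers are shared by the groups. Same-numbered libraries deviated together in 8 of 40 pairs for methylation, 15 of 45 for small RNA and 29 of 45 for mRNA (correlation over 0.1). Their median correlation was 0.02, 0.04 and 0.14, against −0.01, −0.03 and −0.06 for libraries of other numbers. In mRNA, same-numbered libraries thus often deviated together. The main fits held no term for the number, and what it stands for was not tested. With the number as a block, the counts stayed within 1.5 times: 181 copies for methylation, 76 for small RNA and 149 for mRNA in PC9 against PC15. Libraries correlated best with their own number in 8 of 17, 12 of 18 and 13 of 18 cases. Under this block 2 named calls were lost, small RNA of Gypsy_10 on scaffold 2 in HyB against PC9 (adjusted p = 0.0771) and of Gypsy_5 on scaffold 1 in mycelium against HyB (adjusted p = 0.0754). Small RNA depth differed widely between libraries, and methylation coverage is unknown, so small differences may go undetected.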
